A study of Drosophila melanogaster with 15 samples.

Results

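The fly eye turns light into current with a G protein, phospholipase C and TRP channel cascade, and the transcripts of 10 genes of that cascade are described here. They are *Gbeta76C* and *Ggamma30A* (G protein subunits), *norpA* (phospholipase C), *trp* and *trpl* (channels), *inaD*, *inaC* and *ninaC* (the signalling complex and its motor protein), and *rdgA* and *rdgB* (the lipid cycle). The members were chosen by gene symbol, and all 10 were found among the 13259 genes of the count table. RNA came from the heads of adult *Drosophila melanogaster*, and the study asked what eye knockdown of splicing factors of the tri-snRNP does to transcripts. *GMR > prp4* RNAi flies carried the *GMR-Gal4* eye driver with an RNAi transgene of the GD collection against *prp4*, a kinase of the splicing machinery. *GMR > prp8* RNAi flies carried the same driver with a GD transgene against *prp8*, a core spliceosome protein, and *GMR/+* flies carried the driver alone. There were 5 libraries of each genotype. All flies were 3 to 5 days old, had spent at least 3 cycles in 12 h light and 12 h dark, and were frozen at ZT12, 12 h after lights on, as the labels give it. The driver, which all 15 libraries share, acts in the eye while the whole head was extracted. A knockdown and the insertion or background of its RNAi line cannot be told apart here, since *GMR/+* flies carry no RNAi transgene. Fewer photoreceptors and less RNA per photoreceptor cannot be told apart in these bulk samples either.

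In photoreceptors, light-activated rhodopsin switches on a Gq protein, whose alpha subunit activates the phospholipase C encoded by *norpA*. Hydrolysis of a membrane phosphoinositide then opens the TRP and TRPL cation channels in the microvilli of the rhabdomere. The scaffold INAD holds TRP, phospholipase C and the protein kinase C INAC together as the signalplex, while RDGA and RDGB return the lipids to the membrane. Loss of several of these genes blinds the fly or makes the retina degenerate, which is how they were found.

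The authors had resampled the reads of the 15 libraries to equal depth, so the counts do not show how deeply each was sequenced. Gene reads summed to between 11753627 and 11979892 and junction reads to between 3129163 and 3244363. The targeted genes were looked at in whole heads first. *prp4*, listed as CG7028, had 111 to 149 reads in *GMR > prp4* RNAi libraries and 141 to 165 in *GMR/+* libraries, and these ranges overlapped. The *GMR > prp8* RNAi libraries had 123 to 161 CG7028 reads. The 161 belongs to replicate 14 and lies above every *GMR > prp4* RNAi library. *Prp8* had 1264 to 1311 reads in 4 *GMR > prp8* RNAi libraries and 1572 in the fifth, the library labelled *GMR > prp8* RNAi replicate 14, against 1339 to 1545 in *GMR/+* libraries. That library stood apart in other genes, which were picked after their values were seen. CG10264 had 132 reads in it, 108 to 152 in *GMR > prp4* RNAi libraries and 0 in every other library. CG10407 had 2064 reads in it, 1991 to 2205 in *GMR > prp4* RNAi libraries and at most 14 in the others. The eye colour gene *w*, a marker on many fly transgenes, had 6629 reads in it, against 4081 to 4613 in the other *GMR > prp8* RNAi libraries. It went against its label in these genes, so values without it stand beside most *GMR > prp8* RNAi results.

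The cell markers showed head tissue with eyes. Of 7 photoreceptor markers none was at 0, and their summed level was 4091 to 4672 CPM (gene reads relative to the TMM-scaled library size) in *GMR > prp4* RNAi libraries and 4053 to 4652 in *GMR > prp8* RNAi libraries, against 4518 to 4987 in *GMR/+* libraries. In *GMR > prp4* RNAi, *Hdc*, the histidine decarboxylase of photoreceptors, rose (log2 fold change 0.34) and *prom*, a rhabdomere protein, fell (-0.36), while in *GMR > prp8* RNAi the homeobox gene *oc* rose (0.50, or 0.57 without replicate 14). Of 5 glial markers *moody* (-0.34) and *Gs2* (-0.22) fell in *GMR > prp4* RNAi, and of the 4 lens and pigment cell markers tested the lens protein gene *Cry* fell (-0.89) and the pigment transporter *st* rose (0.86). No neuron, muscle or fat body marker passed the test in a comparison with *GMR/+* when all libraries were used. Without replicate 14, the muscle markers *wupA* (0.39), *Act57B* (0.27) and *up* (0.24) were higher in *GMR > prp8* RNAi and the pigment transporter *bw* lower (-0.24). The summed fat body level ranged from 4254 to 20392 CPM in *GMR > prp4* RNAi libraries, from 3169 to 10298 in *GMR > prp8* RNAi libraries and from 5357 to 8754 in *GMR/+* libraries.

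Together the 10 genes took 1.45% ± 0.0318 of gene reads in *GMR > prp4* RNAi libraries and 1.47% ± 0.0415 in *GMR > prp8* RNAi libraries, against 1.60% ± 0.0556 in *GMR/+* libraries (SD, n = 5 each). Without replicate 14 the *GMR > prp8* RNAi share was 1.46% ± 0.0449 (SD, n = 4). Levels of different genes were compared as CPM per kb of annotated exon. In *GMR/+* libraries the order of levels was *trpl* (1078 ± 45.1), *ninaC* (685 ± 21.0), *trp* (573 ± 21.7), *Gbeta76C* (307 ± 17.3), *Ggamma30A* (289.9 ± 11.9), *inaC* (127 ± 3.47), *inaD* (81.4 ± 3.26), *norpA* (73.5 ± 7.68), *rdgA* (27.4 ± 1.86) and *rdgB* (18.5 ± 2.16). Neighbours in this order did not overlap between libraries, except *Gbeta76C* with *Ggamma30A* and *inaD* with *norpA*. The place of *Ggamma30A* rests on a length of 12543 nt. Most of that is a last exon of 11439 nt in 1 of its 8 annotated transcripts, where 4 have a last exon of 743 nt. Which form the reads came from was not determined. A shorter length would raise its level, so its place and that of *trpl* as the highest hold for this length only. Junction reads, which need no length, gave another order for these genes. Over all libraries *Ggamma30A* had 145958 reads on 6 annotated junctions and *trpl* 289410 on 15, so *Ggamma30A* was higher per junction. Its junction from 9272608 to 9291055, common to all its annotated transcripts, averaged 8780 reads in *GMR/+* libraries. The channel transcript *trpl* was thus 58.2-fold above *rdgB* per length. With the longest transcript as the length the ratio was 46.6. The transcripts of the scaffold *inaD* and of the kinase *inaC*, its partner in the complex, were both below that of *trp*, which the scaffold binds. With the same lengths *trpl* was also the highest in both knockdowns, at 881 ± 61.9 in *GMR > prp4* RNAi and 911 ± 53.6 in *GMR > prp8* RNAi libraries. The lowest was *rdgB*, at 20.2 ± 1.64 and 17.0 ± 2.5.

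**Figure D1:**
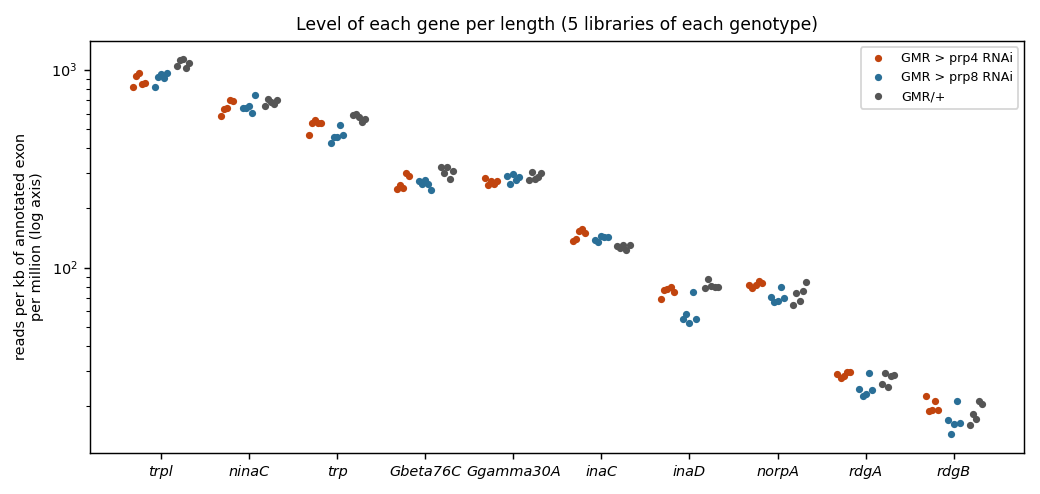
Level of each of the 10 genes as CPM per kb of annotated exon, on a log axis. Each point is 1 library, with *GMR > prp4* RNAi, *GMR > prp8* RNAi and *GMR/+* from left to right, and genes are ordered by their mean in *GMR/+* libraries, from *trpl* at 1078 to *rdgB* at 18.5. The place of *Ggamma30A* holds only for a length of 12543 nt.

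Transcript levels were then compared between genotypes, with a gene called changed at an adjusted p under 0.05. In *GMR > prp4* RNAi against *GMR/+*, *trpl* fell and *inaC* rose, and the other 8 members did not pass the test. Among all 9012 genes tested, 4.97% were called higher and 4.66% lower, so 1 of 10 members in each direction stood near the background. Without scaling beyond library size the calls of all genes were 365 higher and 512 lower, against 448 higher and 420 lower with it, and 3 members were called. The median log2 fold change was -0.09 over the members and -0.000825 over all genes tested. In *GMR > prp8* RNAi against *GMR/+*, 4 members fell, *inaD*, *trp*, *trpl* and *Gbeta76C*, and none rose. Here 2.37% of the 9019 genes tested were called lower and 2.36% higher. Without replicate 14, 5 members fell, *rdgA* being the addition, with 2.85% of genes lower and 2.92% higher. The median over members was -0.14 in *GMR > prp8* RNAi, with 9 of 10 estimates below 0, or -0.21 without replicate 14, while the median over all genes was -0.00126. Both comparisons share the *GMR/+* libraries.

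**Figure D2:**
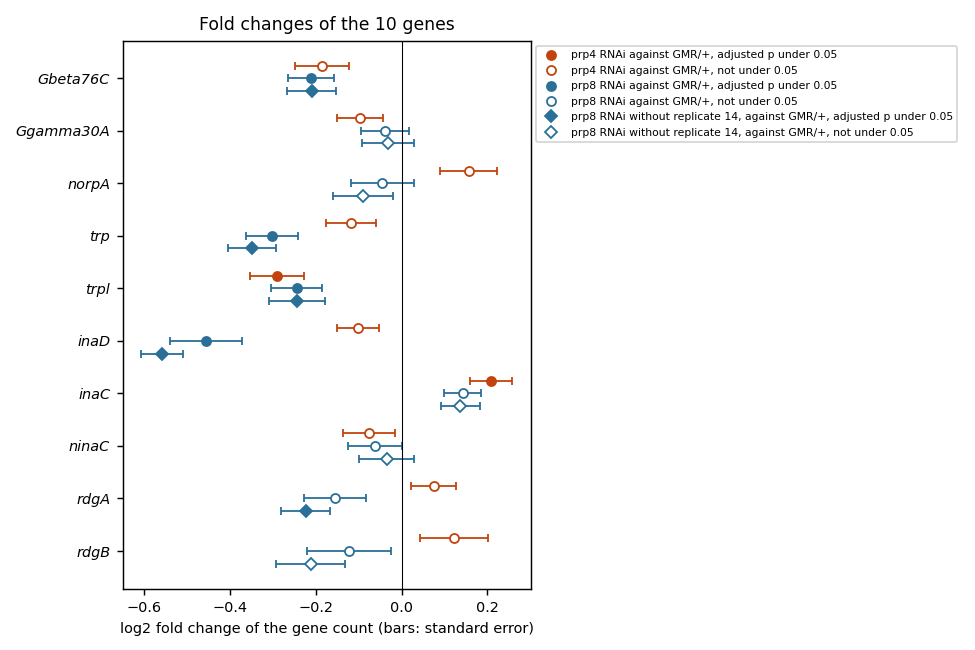
Log2 fold change of the gene count of each member, with a standard error computed from the test statistic. Circles show *GMR > prp4* RNAi and *GMR > prp8* RNAi against *GMR/+* with 5 libraries each, and diamonds leave out the library labelled *GMR > prp8* RNAi replicate 14. Filled symbols mark an adjusted p under 0.05, such as *inaD* at -0.46 and, without that library, at -0.56.

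Of the G protein subunits, *Gbeta76C*, the beta subunit of the eye, was lower in one knockdown by the test. It had 364, 381, 368, 441 and 426 CPM in *GMR > prp4* RNAi libraries and 402, 388, 408, 388 and 362 in *GMR > prp8* RNAi libraries, against 475, 440.3, 472, 413 and 453 in *GMR/+* libraries. The *GMR > prp8* RNAi libraries all lay below the *GMR/+* libraries, and the *GMR > prp4* RNAi libraries overlapped them. In *GMR > prp8* RNAi, *Gbeta76C* fell by 0.21 on the log2 scale (log2 fold change -0.21, SE 0.053, adjusted p = 0.0363, edgeR), and without replicate 14 the value was also -0.21 (adjusted p = 0.0478). This call was lost with library size scaling (adjusted p = 0.0534) and without any one of replicates 1, 2, 3, 5, 11, 12, 13 and 15, with adjusted p over all 10 omissions from 0.0366 to 0.105. The *GMR > prp4* RNAi estimate was -0.19 (SE 0.063, adjusted p = 0.0835), and it passed without replicate 9 (adjusted p = 0.0333). The gamma subunit *Ggamma30A*, which anchors the beta subunit to the membrane, had 3273 to 3564 CPM in *GMR > prp4* RNAi libraries and 3307 to 3708 in *GMR > prp8* RNAi libraries, against 3492 to 3801 in *GMR/+* libraries. Its groups overlapped, with log2 fold changes of -0.10 (adjusted p = 0.301) and -0.04 (adjusted p = 0.755), the second being -0.03 without replicate 14 (adjusted p = 0.821).

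The transcript of *norpA*, the phospholipase C itself, did not pass the test in either knockdown. It had 674, 651, 679, 705 and 689 CPM in *GMR > prp4* RNAi libraries and 592, 557, 564, 665 and 579.8 in *GMR > prp8* RNAi libraries, against 538, 617, 562, 634 and 699.7 in *GMR/+* libraries. The 665 belongs to replicate 14 and lies within the *GMR > prp4* RNAi range, while the other *GMR > prp8* RNAi libraries lie below it. For *norpA* the log2 fold change was 0.16 in *GMR > prp4* RNAi (SE 0.066, adjusted p = 0.165), or 0.21 with an adjusted p of 0.0413 without replicate 5. Its estimate in *GMR > prp8* RNAi was -0.05 (SE 0.074, adjusted p = 0.793), or -0.09 without replicate 14 (adjusted p = 0.528).

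Both channel transcripts were lower in *GMR > prp8* RNAi, and *trpl*, which forms the channel that leaves the rhabdomere in light, was lower in both knockdowns. It had 3173, 3599.9, 3759.8, 3290.2 and 3335 CPM in *GMR > prp4* RNAi libraries, and 3196, 3582, 3688, 3541 and 3719.8 in *GMR > prp8* RNAi libraries. The *GMR/+* libraries had 4082, 4342, 4379.6, 3963 and 4219. No library of either knockdown reached the lowest *GMR/+* library. The log2 fold change of *trpl* was -0.29 in *GMR > prp4* RNAi (SE 0.063, adjusted p = 0.0106), which is 0.818-fold, and the call held without each of the 10 libraries. Its value in *GMR > prp8* RNAi was -0.24 (SE 0.059, adjusted p = 0.0298), or 0.844-fold, and -0.24 without replicate 14 (adjusted p = 0.0416). That call was lost without any one of replicates 2, 3, 4, 5, 11, 12 and 13, with adjusted p over the 10 omissions from 0.0252 to 0.0901.

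The main light-gated channel gene, *trp*, fell in *GMR > prp8* RNAi. It had 1947, 2230.3, 2319.9, 2229.9 and 2222 CPM in *GMR > prp4* RNAi libraries and 1770.3, 1886, 1886, 2173 and 1934 in *GMR > prp8* RNAi libraries, against 2450.4, 2462, 2404, 2248 and 2328 in *GMR/+* libraries. All *GMR > prp8* RNAi libraries lay below the *GMR/+* libraries, and the nearest to them, at 2173, was replicate 14. For *trp* the log2 fold change in *GMR > prp8* RNAi was -0.30 (SE 0.060, adjusted p = 0.0123), or -0.35 without replicate 14 (SE 0.055, adjusted p = 0.00203), and the call held without each of the 10 libraries. The estimate for *GMR > prp4* RNAi was -0.12 (SE 0.058, adjusted p = 0.230).

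**Figure D3:**
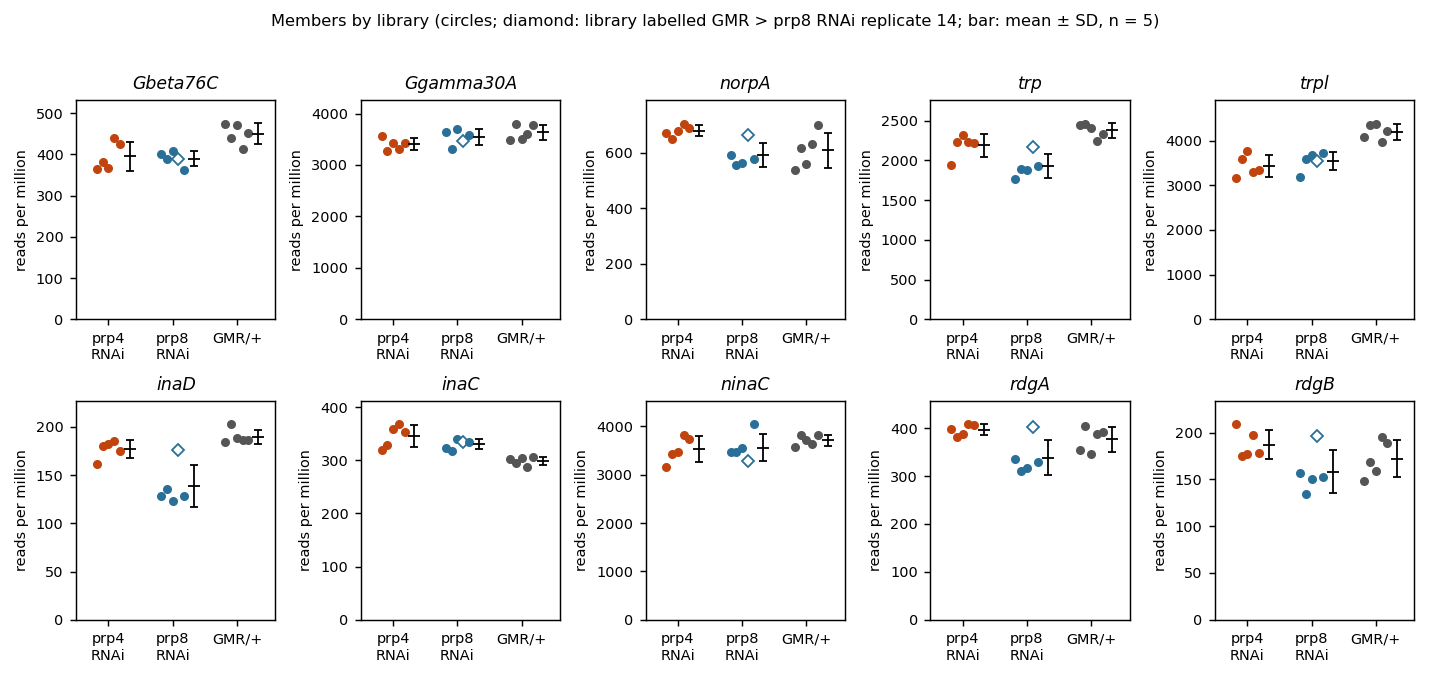
TMM-scaled CPM of each member in every library, with the axis starting at 0. Points are libraries of *GMR > prp4* RNAi, *GMR > prp8* RNAi and *GMR/+* from left to right, an open diamond marks replicate 14 of *GMR > prp8* RNAi, and bars give the mean ± SD of 5 libraries. For *inaD* the diamond sits at 176, apart from the 4 other *GMR > prp8* RNAi libraries at 123 to 136.

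The largest change of a member was in *inaD*, the PDZ-domain scaffold of the signalplex. It had 161, 180.2, 182, 185 and 175 CPM in *GMR > prp4* RNAi libraries and 129, 136, 123, 176 and 128 in *GMR > prp8* RNAi libraries, against 184, 203, 189, 186 and 186 in *GMR/+* libraries. Every *GMR > prp8* RNAi library lay below the *GMR/+* range, and replicate 14, at 176, lay among the *GMR > prp4* RNAi libraries. The scaffold transcript fell by 0.46 on the log2 scale in *GMR > prp8* RNAi (SE 0.084, adjusted p = 0.00811), to 0.729 of its *GMR/+* level. Without replicate 14 the log2 fold change was -0.56 (SE 0.048, adjusted p = 7.98e-06), or 0.679-fold. The call held without each of the 10 libraries, with adjusted p up to 0.0329. The corresponding value for *GMR > prp4* RNAi was -0.10 (SE 0.049, adjusted p = 0.227).

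The eye protein kinase C *inaC*, which the scaffold holds and which acts in deactivation and adaptation, ran the other way. It had 319, 328, 358, 368 and 353 CPM in *GMR > prp4* RNAi libraries and 323, 318, 340.4, 335 and 334 in *GMR > prp8* RNAi libraries, against 303, 294, 305, 287 and 306 in *GMR/+* libraries. All libraries of both knockdowns lay above the highest *GMR/+* library. *inaC* rose in *GMR > prp4* RNAi, with a log2 fold change of 0.21 (SE 0.049, adjusted p = 0.0165), and the call held without each library. For *GMR > prp8* RNAi the estimate was 0.14 (SE 0.043, adjusted p = 0.0781), or 0.14 without replicate 14 (adjusted p = 0.0991). It passed with DESeq2 (adjusted p = 0.0106) and with library size scaling (adjusted p = 0.0493). Genes whose libraries did not overlap between groups made up 9.18% of all tested in *GMR > prp4* RNAi and 5.72% in *GMR > prp8* RNAi. Among members they were 2 of 10, *trpl* and *inaC*, and 5 of 10, those 2 with *Gbeta76C*, *trp* and *inaD*.

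The class III myosin gene *ninaC*, whose protein binds calmodulin and the scaffold, did not pass the test in a comparison. It had 3168 to 3829 CPM in *GMR > prp4* RNAi libraries and 3292 to 4047 in *GMR > prp8* RNAi libraries, against 3573 to 3831 in *GMR/+* libraries. Its log2 fold changes were -0.08 in *GMR > prp4* RNAi (SE 0.061, adjusted p = 0.494) and -0.06 in *GMR > prp8* RNAi (SE 0.063, adjusted p = 0.636), or -0.03 without replicate 14 (adjusted p = 0.815), and all 3 ranges overlapped.

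Of the lipid cycle genes, *rdgA* encodes the diacylglycerol kinase that removes the product of phospholipase C. It had 398, 382, 388, 408 and 407 CPM in *GMR > prp4* RNAi libraries and 335, 310.5, 316, 402 and 329.5 in *GMR > prp8* RNAi libraries, against 354, 403, 345, 388 and 393 in *GMR/+* libraries. The 402 is replicate 14, and without it the *GMR > prp8* RNAi libraries lay below all *GMR/+* libraries. With it the log2 fold change was -0.15 (SE 0.072, adjusted p = 0.244), and without it -0.22 (SE 0.057, adjusted p = 0.0340). Against this, *GMR > prp4* RNAi gave 0.08 (SE 0.052, adjusted p = 0.418). The phosphatidylinositol transfer protein gene *rdgB* had 174 to 209 CPM in *GMR > prp4* RNAi libraries, 134 to 157 in *GMR > prp8* RNAi libraries other than replicate 14, and 197 in that library, against 148 to 196 in *GMR/+* libraries. Its log2 fold changes were 0.12 (SE 0.080, adjusted p = 0.387) in *GMR > prp4* RNAi and -0.12 (SE 0.098, adjusted p = 0.524) in *GMR > prp8* RNAi, or -0.21 (SE 0.080, adjusted p = 0.152) without replicate 14.

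The knockdowns were also compared with each other, *GMR > prp4* RNAi against *GMR > prp8* RNAi, in a fit of all 15 libraries. The scaffold *inaD* was higher in *GMR > prp4* RNAi, with a log2 fold change of 0.35 (SE 0.078, adjusted p = 0.0211), and no other member passed. Of the 9115 genes tested, 1.37% were higher and 0.987% lower. Library size scaling turned the split of all genes from 125 higher and 90 lower to 102 higher and 136 lower. The *inaD* call was lost when the *GMR/+* libraries were left out of the fit (adjusted p = 0.0761) and without any one of replicates 8, 9, 11, 12, 13 and 15, with adjusted p over the 15 omissions up to 0.0742. Without replicate 14, 5 members were higher in *GMR > prp4* RNAi, with 4.02% of all genes higher and 2.33% lower. They were *inaD* (log2 fold change 0.46, SE 0.049), *rdgB* (0.34, SE 0.081), *rdgA* (0.30, SE 0.052), *norpA* (0.25, SE 0.065) and *trp* (0.23, SE 0.058), with adjusted p from 8.42e-06 to 0.0276. The 5 members that did not pass without it were *Gbeta76C*, *Ggamma30A*, *trpl*, *inaC* and *ninaC*, with log2 fold changes between -0.06 and 0.07.

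The sum of the members was set against the sum of the photoreceptor markers, as a value without a test. The log2 ratio was 1.73 ± 0.0425 in *GMR > prp4* RNAi libraries and 1.78 ± 0.0567 in *GMR > prp8* RNAi libraries, against 1.75 ± 0.0215 in *GMR/+* libraries (SD, n = 5 each). Without replicate 14 the *GMR > prp8* RNAi ratio was 1.77 ± 0.0589 (SD, n = 4). The libraries of the 3 genotypes overlapped, and the differences from *GMR/+* were -0.03 and 0.02. As a mean of log2 ratios over the members the *GMR > prp4* RNAi difference had the opposite sign, 0.06. Most of the marker sum was *chp*, the chaoptin gene, at 3608 ± 232 CPM in *GMR > prp4* RNAi and 3401 ± 231 in *GMR > prp8* RNAi libraries, against 3960 ± 151 in *GMR/+* libraries (SD, n = 5 each). The median log2 fold change over the 7 markers was 0.11 in *GMR > prp4* RNAi, with 4 estimates above 0, and 0.03 in *GMR > prp8* RNAi, with 5 above 0. The part of the markers in the members' changes was not tested.

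Neighbouring genes of the cascade gave a wider frame. Of the 7 opsins, 5 fell and 0 rose in *GMR > prp4* RNAi (list median -0.32), against 4.66% of all genes lower. In *GMR > prp8* RNAi 3 fell (-0.26), against 2.37% of all genes lower, and the result for *Rh2* depended on replicate 14. Those of *GMR > prp4* RNAi were the ocellar *Rh2* (-0.87), the R7 opsins *Rh3* (-0.73) and *Rh4* (-0.81), the R8 opsin *Rh5* (-0.32) and *Rh7* (-0.32). Those of *GMR > prp8* RNAi were *Rh4* (-0.83), *Rh5* (-0.40) and *Rh7* (-0.31), and all 3 also passed without replicate 14. *ninaE*, by far the most abundant opsin, did not pass in either knockdown, nor did *Rh6*. The *ninaE* level was 81295.5 ± 4025 CPM in *GMR > prp4* RNAi and 72849 ± 5436 in *GMR > prp8* RNAi libraries, against 81594 ± 1733 in *GMR/+* libraries (SD, n = 5 each). Without replicate 14 its log2 fold change in *GMR > prp8* RNAi was -0.21 (adjusted p = 0.164). *Rh2* had 1040 to 1224 reads in *GMR > prp4* RNAi libraries, 1161 in replicate 14 and 2634 to 3179 in the other *GMR > prp8* RNAi libraries, against 2032 to 2183 in *GMR/+* libraries. Its log2 fold change in *GMR > prp8* RNAi was 0.27 (SE 0.195, adjusted p = 0.473), or 0.46 without replicate 14 (SE 0.053, adjusted p = 1.13e-04), where *Rh2* passed as higher. Of 11 other cascade and lipid cycle genes, *laza*, a lipid phosphate phosphatase, fell (-0.44) and *Plc21C*, another phospholipase C, rose (0.17) in *GMR > prp4* RNAi, and *CdsA*, the CDP-diacylglycerol synthase, fell (-0.22) in *GMR > prp8* RNAi. Without replicate 14 *CdsA* (-0.24), *stops* (-0.38) and *Galphaq*, the alpha subunit of the cascade (-0.18), were lower. Of the channel and scaffold partners, 0 of 8 tested passed in *GMR > prp4* RNAi and 1 of 9 in *GMR > prp8* RNAi, *rtp*, whose protein binds NINAC, at -0.27, while without replicate 14 *rtp* (-0.35) and *inaF-C* (-0.94) passed. Of 6 shut-off genes the rhodopsin phosphatase *rdgC* rose in *GMR > prp4* RNAi (0.34) and none passed in *GMR > prp8* RNAi. Of 18 relatives of the members that act outside the cascade, *Gbeta5* fell in both knockdowns (-0.25 and -0.27) and *pain*, a TRP channel of nociception, rose in *GMR > prp4* RNAi (0.23). Without replicate 14, 0 of the 6 shut-off genes passed in *GMR > prp8* RNAi, and *Gbeta5* (-0.27) was the 1 of the 18 relatives that did. All of these passed at adjusted p under 0.05 over all genes tested.

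The junction counts, reads that span a splice, turned on *Ggamma30A*. The question was whether the share of any junction among the reads of its gene changed. In *GMR > prp4* RNAi 2 of the 10 members had changed junction use, *Ggamma30A* and *rdgA*, against 0.562% of 4445 genes tested, and in *GMR > prp8* RNAi 1 of 10 did, *Ggamma30A*, against 0.291% of 4464 genes. Of the 116 member junctions tested, 112 of them introns of the annotation, 2 passed in *GMR > prp4* RNAi and 1 in *GMR > prp8* RNAi, against 0.167% and 0.139% of all junctions. *Ggamma30A* was a member with a junction shift already known from these libraries, so its call in these counts was fixed in advance. The member shares are therefore no independent evidence beside the background. The *Ggamma30A* junction was the same one in both knockdowns, an unannotated splice from 9257207 to 9291055 on chromosome 2L, plus strand (intron coordinates, BDGP6). It spans 33849 nt and passes over the exon at 9272466 to 9272607, of 142 nt, which 7 of the 8 annotated transcripts use, the eighth using a shorter form of 106 nt that begins at 9272502. Every annotated start codon of *Ggamma30A* lies in that exon, so a transcript spliced in this way lacks them.

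The skipping junction was rare and higher in both knockdowns. It had 31, 23, 33, 22 and 22 reads in *GMR > prp4* RNAi libraries and 22, 24, 26, 19 and 20 in *GMR > prp8* RNAi libraries, against 8, 8, 3, 8 and 9 in *GMR/+* libraries. No knockdown library, replicate 14 with 19 reads included, overlapped the *GMR/+* libraries. Relative to all tested junction reads of *Ggamma30A*, which is what a relative log2 ratio means here, it rose by 1.94 in *GMR > prp4* RNAi (adjusted p = 2.63e-07 over all junctions, edgeR) and 1.59 in *GMR > prp8* RNAi (adjusted p = 6.94e-05), or 1.63 without replicate 14 (adjusted p = 1.15e-04). With limma the *Ggamma30A* values were 1.95 (adjusted p = 4.00e-05) and 1.65 (adjusted p = 8.95e-04). Per gene, the adjusted p was 4.61e-07 in *GMR > prp4* RNAi and 0.000234 in *GMR > prp8* RNAi. The junction passed the minimum of 10 reads in 5 libraries through the knockdown libraries alone. It was also known from earlier results of these libraries when the genes were chosen, so these p-values repeat that choice and are no independent evidence.

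The annotated junctions that share its ends did not pass. The junction of *Ggamma30A* into the start-codon exon, 9257207 to 9272465, averaged 967 reads in *GMR > prp4* RNAi and 1033 in *GMR > prp8* RNAi libraries, against 1042 in *GMR/+* libraries, with relative log2 ratios of -0.01 and -0.03 (adjusted p close to 1). The junction out of it, 9272608 to 9291055, averaged 8220 and 8934 reads in the knockdowns and 8780 in *GMR/+* libraries. Other annotated 5′ exons join the start-codon exon too. An unannotated splice from 9284360 to the same acceptor had 8 to 13 reads in *GMR > prp4* RNAi libraries and 8 to 12 in *GMR > prp8* RNAi libraries, against 5 to 23 in *GMR/+* libraries, and did not pass. No other junction that shared an end had more than 4 reads in a library.

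As a share of the reads at either end, skipping made up 0.286%, 0.256%, 0.353%, 0.265% and 0.254% in *GMR > prp4* RNAi libraries. The *GMR > prp8* RNAi libraries had 0.201%, 0.260%, 0.258%, 0.195% and 0.199%, and the *GMR/+* libraries 0.0927%, 0.0728%, 0.0324%, 0.0792% and 0.0879%. The means were 0.283% ± 0.0411 and 0.223% ± 0.0333 in the knockdowns, against 0.0730% ± 0.0240 in *GMR/+* (SD, n = 5 each). That is 3.87-fold in *GMR > prp4* RNAi and 3.05-fold in *GMR > prp8* RNAi, given as a description, and without replicate 14 the *GMR > prp8* RNAi mean was 0.230% ± 0.0341 (SD, n = 4). Of the reads leaving the donor at 9257207 alone, a denominator chosen after seeing the data, skipping took 2.61% ± 0.391 and 2.1% ± 0.200 in the knockdowns, against 0.689% ± 0.233 in *GMR/+*. Between the knockdowns, *GMR > prp4* RNAi was 1.27-fold above *GMR > prp8* RNAi (exact two-sided permutation p = 0.0476), and the libraries overlapped. Adjustment over the 3 comparisons of genotypes left this p at 0.0476. It adds nothing, since the comparisons with *GMR/+* were fixed by the choice of the junction. The difference between the knockdowns missed the threshold per read of all tested junctions (exact p = 0.0556), per gene read (exact p = 0.0794) and without any one of replicates 6, 8, 9, 11, 14 and 15.

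**Figure D4:**
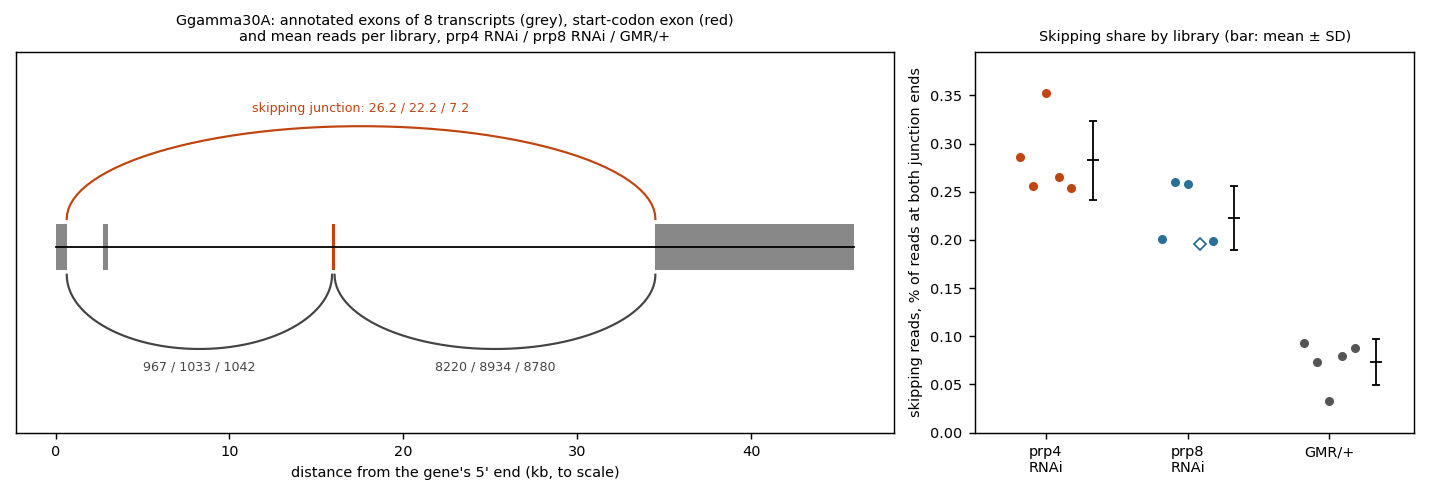
Left, annotated exons of *Ggamma30A* drawn to scale in kb from the 5′ end of the gene, with the start-codon exon in red and arcs for 3 junctions, each with its mean reads per library in *GMR > prp4* RNAi, *GMR > prp8* RNAi and *GMR/+*. Right, skipping reads as a percent of reads at both ends of the junction in each library, with mean ± SD of 5 libraries. All knockdown libraries, from 0.195% to 0.353%, lie above the *GMR/+* libraries at 0.0324% to 0.0927%.

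Upstream of this junction, exon counts of *Ggamma30A* changed in *GMR > prp4* RNAi. Changed exon use was called in 2 of 10 members in *GMR > prp4* RNAi, *Ggamma30A* and *rdgA*, against 0.962% of 7484 genes, and in 1 of 10 in *GMR > prp8* RNAi, *trpl*, against 0.601% of 7491 genes. Of 240 member exon rows tested, 6 passed in *GMR > prp4* RNAi and 1 in *GMR > prp8* RNAi, against 0.33% and 0.231% of all exon rows. In *Ggamma30A* 4 rows passed (gene-level adjusted p = 0.00455), all overlapping, all marked in the table as new exons and all inside the annotated 5′ exon that ends at 9257206. They begin at 9256893 or 9256896 and end at 9257189 or 9257201, so they share most reads and are 1 observation. The row from 9256893 to 9257189 had 365, 308, 337, 314 and 298 reads in *GMR > prp4* RNAi libraries and 241, 210, 229, 328 and 238 in *GMR > prp8* RNAi libraries, against 200, 263, 243, 253 and 239 in *GMR/+* libraries. The *GMR > prp4* RNAi libraries lay above all *GMR/+* libraries, as did the 328 of replicate 14, while the other *GMR > prp8* RNAi libraries lay among them. Relative to all tested exon reads of *Ggamma30A*, its log2 ratio in *GMR > prp4* RNAi was 0.53 (adjusted p = 8.93e-04), and in *GMR > prp8* RNAi it was 0.05, or -0.07 without replicate 14, both with an adjusted p close to 1. Leaving out replicate 5 raised the gene-level adjusted p to 0.0502.

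In *rdgA*, on the plus strand of chromosome X, a stretch near the 3′ end changed in *GMR > prp4* RNAi (adjusted p = 0.0118 for junctions and 0.0124 for exons). The annotated junction 9024419 to 9024623 had 204, 192, 181, 200 and 181 reads in *GMR > prp4* RNAi libraries and 136, 140, 112, 182 and 135 in *GMR > prp8* RNAi libraries, against 110, 133, 116, 118 and 146 in *GMR/+* libraries. All *GMR > prp4* RNAi libraries and replicate 14, with 182, lay above the rest. Its relative log2 ratio was 0.61 in *GMR > prp4* RNAi (adjusted p = 0.00276) and 0.42 in *GMR > prp8* RNAi (adjusted p = 0.370), or 0.36 without replicate 14 (adjusted p = 0.860). The exon it enters, counted from 9024624 to 9025238, is an exon of 5 of the 11 annotated transcripts with the 302 nt that the table adds past it, where longer forms of the exon continue in 2 other transcripts. It had 485, 439, 470, 492 and 433 reads in *GMR > prp4* RNAi libraries and 317, 287, 276, 498 and 310 in *GMR > prp8* RNAi libraries, against 265, 295, 283, 313 and 348 in *GMR/+* libraries.

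The row from 9022018 to 9022854, marked as new, runs 615 nt past an annotated exon of 10 of the 11 transcripts and lies within the longer form of that exon, to 9023021, of the other 1. It had 510 to 642 reads in *GMR > prp4* RNAi libraries, 327 to 394 in *GMR > prp8* RNAi libraries other than replicate 14, and 614 in that library, against 299 to 410 in *GMR/+* libraries. The relative log2 ratios of these exon rows in *GMR > prp4* RNAi were 0.48 (adjusted p = 0.00457) for the exon from 9024624 and 0.50 (adjusted p = 0.00192) for the row from 9022018. The 3 small exons between them, of 52, 54 and 64 nt, had relative log2 ratios of -0.34, -0.34 and -0.39 and did not pass (adjusted p = 0.491, 0.430 and 0.0881). The call on *rdgA* junctions was lost without any one of replicates 2, 3, 4, 7 and 8 (adjusted p up to 0.143), and that on its exons without 2, 4, 7 or 8 (up to 0.123). In the called exon rows and the called junction of *rdgA*, replicate 14 followed the *GMR > prp4* RNAi libraries, as it did for CG10264 and CG10407. The part of a shared background was not tested.

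In *trpl* 1 exon row changed in *GMR > prp8* RNAi, 2R 9755283 to 9755759, marked as new, which runs 331 nt upstream of an annotated exon of all 3 transcripts into the intron. It had 704, 620, 781, 658 and 679 reads in *GMR > prp4* RNAi libraries and 786, 777, 742, 677 and 962 in *GMR > prp8* RNAi libraries, against 624, 715, 608, 673 and 640 in *GMR/+* libraries. Replicate 14, with 677, lay within the *GMR/+* range and the other *GMR > prp8* RNAi libraries above it. The relative log2 ratio was 0.49 (adjusted p = 0.00230), or 0.54 without replicate 14 (adjusted p = 3.39e-04). At the gene level (adjusted p = 0.0298) the call was lost with an F test over the exons (0.196) and without any one of replicates 2, 3, 5, 11, 12, 13 and 15 (up to 0.479).

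**Figure D5:**
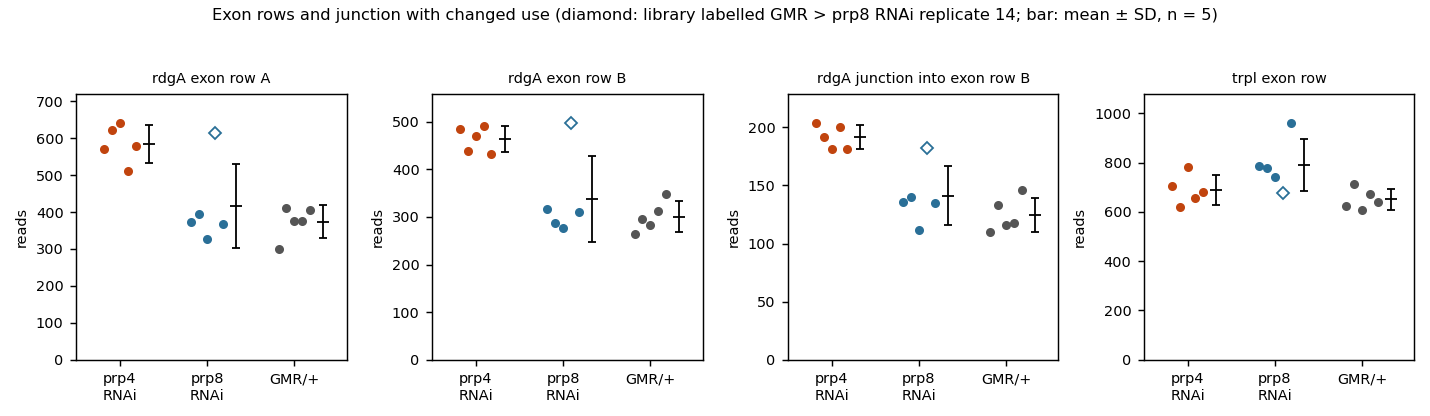
Reads per library of *rdgA* exon row A (9022018 to 9022854), exon row B (9024624 to 9025238) and the junction into it, and of the *trpl* exon row, with mean ± SD of 5 libraries. The open diamond is the library labelled *GMR > prp8* RNAi replicate 14, which has 614 reads in row A, where the other *GMR > prp8* RNAi libraries have 327 to 394.

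For the other 8 members no junction passed in either knockdown. The smallest p among them was that of a *trp* junction, 3R 29918732 to 29918805, with 51 to 75 reads in *GMR > prp4* RNAi libraries, against 74 to 102 in *GMR/+* libraries, and a relative log2 ratio of -0.43 (adjusted p = 0.654). In *GMR > prp4* RNAi the next were *trpl* 2R 9753978 to 9755613 (0.35, adjusted p = 0.873) and *ninaC* 2L 7377866 to 7378384 (-0.54, adjusted p = 0.986), and in *GMR > prp8* RNAi they were *ninaC* 2L 7382662 to 7382757 (0.40) and *trpl* 2R 9755760 to 9756037 (0.21), both with an adjusted p close to 1. A change in junction use was thus not detectable at this depth for *Gbeta76C*, *norpA*, *trp*, *trpl*, *inaC*, *inaD*, *ninaC* and *rdgB*.

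Reads on annotated junctions per 100 gene reads were also taken, as values without a test. In *GMR/+* libraries the mean ratio ranged from 19.9 for *rdgB* to 72.1 for *inaC*. It depends on the exons of a gene and on where its reads fall, so it does not give the spliced part of the RNA. For *trpl* the ratio was 43.6 ± 1.5 in *GMR > prp4* RNAi libraries and 44.0 ± 0.530 in *GMR > prp8* RNAi libraries, against 43.5 ± 0.852 in *GMR/+* libraries. For *inaD* it was 60.3 ± 1.95 and 61.4 ± 1.57 in the knockdowns, against 60.2 ± 2.6 in *GMR/+* libraries (SD, n = 5 each). For both genes the ratios of the 3 genotypes overlapped. For *norpA* the ratio was 23.5 ± 0.827 in *GMR > prp4* RNAi libraries and 22.2 ± 0.739 in *GMR > prp8* RNAi libraries, against 24.8 ± 1.21 in *GMR/+* libraries. The *GMR > prp8* RNAi libraries, from 21.4 to 23.2, lay below the *GMR/+* libraries, from 23.3 to 26.1, and without replicate 14 their mean was 21.9 ± 0.576 (SD, n = 4). In *GMR > prp4* RNAi 0 of the 10 members had ratios that did not overlap those of *GMR/+* libraries, where 1.31% of 6579 genes did. In *GMR > prp8* RNAi *norpA* was the 1 of 10, with all libraries and without replicate 14, where 1.0% and 2.19% of those genes did.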

How the data were processed

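Reads of 15 fly head libraries were aligned by the authors with STAR 2.5.3a to BDGP6. Ribosomal and mitochondrial reads were removed and the aligned reads of each library were resampled to equal depth with PORT, so that exon counts sum to 28597628 in every library. The deposited values are whole-number counts of reads per gene, exon and junction, with no scaling. Exons and introns were named from a later Ensembl annotation of BDGP6, past whose gene ends most gene models of the table run by 302 nt. Exons or junctions listed with several genes were not used, and no value column was left out.

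Gene counts were tested with edgeR 4.0.16 (R 4.3.3): filterByExpr, TMM and the quasi-likelihood test of 5 libraries against 5, with Benjamini-Hochberg adjustment over all genes tested and a threshold of 0.05. Knockdowns were compared with each other in a fit of all 15 libraries. Junction and exon use were tested with diffSpliceDGE (Simes per gene, its natural-log ratios converted to log2) on junctions or exons that reached 10 counts in 5 or more libraries, for genes with 2 or more such features. Adjusted p-values without another name come from these edgeR tests. The SE of a gene's log2 fold change is its absolute value divided by the square root of the F statistic of the quasi-likelihood test. It restates that test and is no separate estimate. Scripts were tested on simulated data. Shares were compared by exact two-sided permutation tests (Python 3.11.15, scipy 1.17.1). Alternatives were limma-voom, DESeq2 1.42.0, other filters and scalings, and leaving out each library. The study calls the *GMR > prp4* RNAi and *GMR/+* libraries biological replicates. For *GMR > prp8* RNAi nothing in the sources used here says so, and p-values there measure a spread that may be technical.

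The members, the gene lists and the rule were chosen with earlier results of these data known. The rule names all 10 members, list genes past the threshold (at most 5 per list and comparison), member junctions and exons past it, every junction sharing an end with the *Ggamma30A* one, and the junction with the smallest p of a member.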

Additional observations from a re-analysis of the deposited data

Results flagged for a closer look

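Of 57 groups of 5 libraries searched among the values reported, 11 had a highest or lowest library whose gap to the nearest other library, as a share of the range of the group, was above 0.71, Dixon's critical value for 5 libraries. Chance gives about 2.85 such groups. The library labelled *GMR > prp8* RNAi replicate 14 accounted for 8 of the 11, and these are not independent, since 4 of them are overlapping *Ggamma30A* exon rows and 3 lie in *rdgA*.

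For *inaD* that library had 176 CPM where the next had 136 (gap share 0.760), and for *rdgA* 402 where the next had 335 (0.737). In the *Ggamma30A* exon rows it was highest in 9256893 to 9257189 (0.737), 9256893 to 9257201 (0.727), 9256896 to 9257189 (0.804) and 9256896 to 9257201 (0.810). In *rdgA* it was highest in the exon rows 9022018 to 9022854 (0.767) and 9024624 to 9025238 (0.815). Its reads in these rows, 614 and 498 in *rdgA*, lay within or just above the *GMR > prp4* RNAi libraries, whose highest were 642 and 492.

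The other 3 came from other libraries. *trp* was lowest in *GMR > prp4* RNAi replicate 6 (1947 CPM, gap share 0.737), *inaD* was highest in *GMR/+* replicate 2 (203, gap share 0.741), and the *Ggamma30A* exon row 9256896 to 9257189 was lowest in *GMR/+* replicate 1 (187 reads, gap share 0.729).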

How the results depend on the processing

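No paired analysis was possible because each library has a replicate number of its own. Of the member levels by setting, 488 stayed on their side of the threshold, 12 gained and 23 lost the call, and 7 changed sign, none of them called. These were *norpA* in *GMR > prp8* RNAi without replicate 5 (0.011; -0.090 to 0.011 over the omissions), *Gbeta76C* between the knockdowns with library size only (-0.012) and without replicates 9 (-0.018), 10 (-0.00374) and 15 (-0.00196; -0.018 to 0.053), and *ninaC* between the knockdowns without replicates 6 and 15 (0.035; -0.046 to 0.035). Leaving out 1 library gave 562 to 923 genes at the gene level in *GMR > prp4* RNAi (2 to 3 members called), 214 to 534 in *GMR > prp8* RNAi (2 to 5) and 76 to 578 between the knockdowns (0 to 5). It gave 19 to 25 genes with changed junction use in *GMR > prp4* RNAi (1 to 2 members) and 7 to 28 in *GMR > prp8* RNAi (1), and 50 to 86 and 31 to 49 genes with changed exon use (1 to 2 and 0 to 1 members). Between the knockdowns the 215 genes were 373 with DESeq2 (3 members called) and 84 with only both knockdowns in the fit (0 members). Junction use in *GMR > prp4* RNAi gave 25 genes, or 48 by the F test and 13 with a minimum of 50 counts, and in *GMR > prp8* RNAi 13, or 22, 5 and, with limma, 26. The 2 and 1 members with changed junction use became 1 and 0 with that minimum or with annotated introns only, where the skipping junction is not tested. Exon use in *GMR > prp4* RNAi gave 72 genes, or 173 by the F test (4 members) and 117 with limma, and in *GMR > prp8* RNAi 45, or 102 by the F test (0 members) and 28 with the minimum. The log2 *Ggamma30A* junction share between the knockdowns was 0.34, both as reported and per read of tested junctions, and 0.31 per gene read, and leaving out 1 library gave 0.25 to 0.41. Against *GMR/+* it was 1.77 to 2.05 in *GMR > prp4* RNAi and 1.42 to 1.71 in *GMR > prp8* RNAi. Members per photoreceptor marker read in *GMR > prp4* RNAi was -0.03, or -0.091 per opsin read and 0.063 as a mean of log2 ratios. The *trpl* to *rdgB* level per length was 58.2, or 46.6 with the longest transcript. The causes of these shifts were not tested. The donor-only share, the values printed without replicate 14 and a filter of junctions and exons on their mean over both groups, which gave the skipping junction a relative log2 ratio of 1.94 and 1.59, were chosen after seeing the data. The skipping junction had at most 33 reads in a library, which limits its precision.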

Other observations

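A set of *Ggamma30A* splices ran out of the gene, and they were singled out after their values were seen. From the end of the start-codon exon, 2L 9272608, a splice to 9324871, past the annotated end of the gene at 9302494, had 9, 11, 8, 7 and 7 reads in *GMR > prp4* RNAi libraries and 8, 6, 9, 8 and 16 in *GMR > prp8* RNAi libraries, against 1, 6, 2, 1 and 3 in *GMR/+* libraries. The *GMR > prp4* RNAi libraries all lay above the *GMR/+* libraries, and the lowest *GMR > prp8* RNAi library equalled the highest of them. A second splice from the same donor to 9327774 had 3, 1, 6, 0 and 4 reads in *GMR > prp4* RNAi libraries and 2, 4, 6, 2 and 3 in *GMR > prp8* RNAi libraries, against 0, 2, 1, 1 and 1 in *GMR/+* libraries. That acceptor lies inside CG17005, at 9327744 to 9330332 on the same chromosome. CG17005 had 424 to 506 reads in *GMR > prp4* RNAi libraries, 196 to 265 in 4 *GMR > prp8* RNAi libraries and 437 in the fifth, replicate 14, against 40 to 64 in *GMR/+* libraries. Its log2 fold change was 3.23 in *GMR > prp4* RNAi (adjusted p = 1.81e-10, edgeR) and 2.45 in *GMR > prp8* RNAi (adjusted p = 3.1e-05), or 2.23 without replicate 14 (adjusted p = 4.82e-07). The part of an insertion near this locus was not tested.

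In *rdgA* the annotated junction 9022240 to 9024260, which passes over the 3 small exons, had 17, 21, 12, 10 and 10 reads in *GMR > prp4* RNAi libraries and 19, 19, 8, 17 and 19 in *GMR > prp8* RNAi libraries, against 8, 13, 8, 7 and 14 in *GMR/+* libraries. Its relative log2 ratio was 0.95 in *GMR > prp8* RNAi, or 0.99 without replicate 14, and did not pass (adjusted p = 0.273 and 0.247).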
